A study of Mus musculus with 9 samples.

Results

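LSK cells labelled irradiated were compared with LSK cells labelled endogenous, LSK being the lineage-negative marrow fraction that carries Sca-1 and c-Kit. The comparison rests on 6 of the 9 sequenced libraries, 3 irradiated and 3 endogenous, which were chosen by their source names. The other 3 libraries, labelled circulating, entered the fit to share its estimate of the spread, and their values are given for reference. All 9 came from bone marrow LSK cells that were sorted from specific-pathogen-free parabiotic mice, animals joined surgically so that they share a circulation. The study concerned LSK cells that reach the marrow of an irradiated partner. The strain label was C57BL/6 for the irradiated and the circulating libraries and B6SJL CD45.1 for the endogenous libraries. The titles of the irradiated libraries carry the unexplained codes DD and LSK2, those of the endogenous libraries SJ and LSK1, and those of the circulating libraries DD and LSK1. Group, strain label and title code therefore cannot be told apart between irradiated and endogenous cells. The sources used here give neither the radiation dose and the time after it nor the age of the mice, nor whether a library came from 1 mouse or several. The p-values measure the spread between these libraries, which may be technical.

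The LSK fraction holds haematopoietic stem cells and multipotent progenitors, and it is the part of the marrow from which all blood lineages descend. Stem cells in it divide rarely and are held in their niche by receptors such as CXCR4, which binds the chemokine CXCL12. Ionising radiation breaks DNA, activates p53 and depletes dividing progenitors, and the cells that remain can be recruited into division to refill the marrow. In bulk libraries such as these, fewer cells of a type and less RNA per cell cannot be told apart.

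Values are the deposited normalised values, which are estimated counts relative to the library's scaled size and are listed for libraries 1, 2 and 3 in that order. The 6 libraries held between 21309169 and 27012345 estimated counts. The median standard deviation of a gene was 0.213 log2 units among irradiated, 0.262 among endogenous and 0.382 among circulating libraries. Transcripts of both positive gate markers were present in all 6 libraries: Ly6a (Sca-1) at 202, 159 and 163 in irradiated and 177, 194 and 169 in endogenous cells, and Kit at 576, 562 and 622 and 887, 1011 and 737. Irradiated replicate 1 stood apart in immunoglobulin transcripts, with Ighm at 22640 against 1657 and 3363 in irradiated replicates 2 and 3. Its 10 most abundant genes took 7.09% of the values, against 3.87% to 4.63% in the other 5 libraries.

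Of 13771 tested genes, 83 were called (0.603%, limma with Benjamini-Hochberg adjustment under 0.05): 65 were higher (0.472%) and 18 lower (0.131%) in irradiated cells. The changes that passed were mostly moderate, with a median size of 1.15 log2 units. The change exceeded 2-fold in 34 of the genes that rose and 16 of those that fell. The groups did not overlap in any of the 83, but this also held for 27.7% of all tested genes. The fit shared its estimate of spread with the more variable circulating libraries. When only these 6 libraries were fitted, 757 genes passed (5.5%), 489 higher (3.55%) and 268 lower (1.95%), and they included all 83. Below, "rose" and "fell" refer to the fit of 9 libraries, and genes that passed only in the fit of 6 are named as such. The call count leaned on every one of the 6 libraries: it was 7, 32 and 6 when irradiated replicates 1, 2 and 3 were left out in turn, and 6, 7 and 27 for the endogenous replicates. Without circulating replicates 1, 2 and 3 it was 263, 137 and 235. Ctse, Dynlt1b, Cxcr4, Fn3krp, Cep85 and Gm26880 kept their call in all 9 of these fits, and each other call ended without at least 1 library. With the circulating libraries set aside, 66 of the 83 passed whichever of the 6 was left out. No called gene changed direction in any of these fits. With every library rescaled to the same total the median gene moved to -0.13 on the log2 scale, from -0.009, and the calls split into 49 higher and 26 lower.

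**Figure D1:**
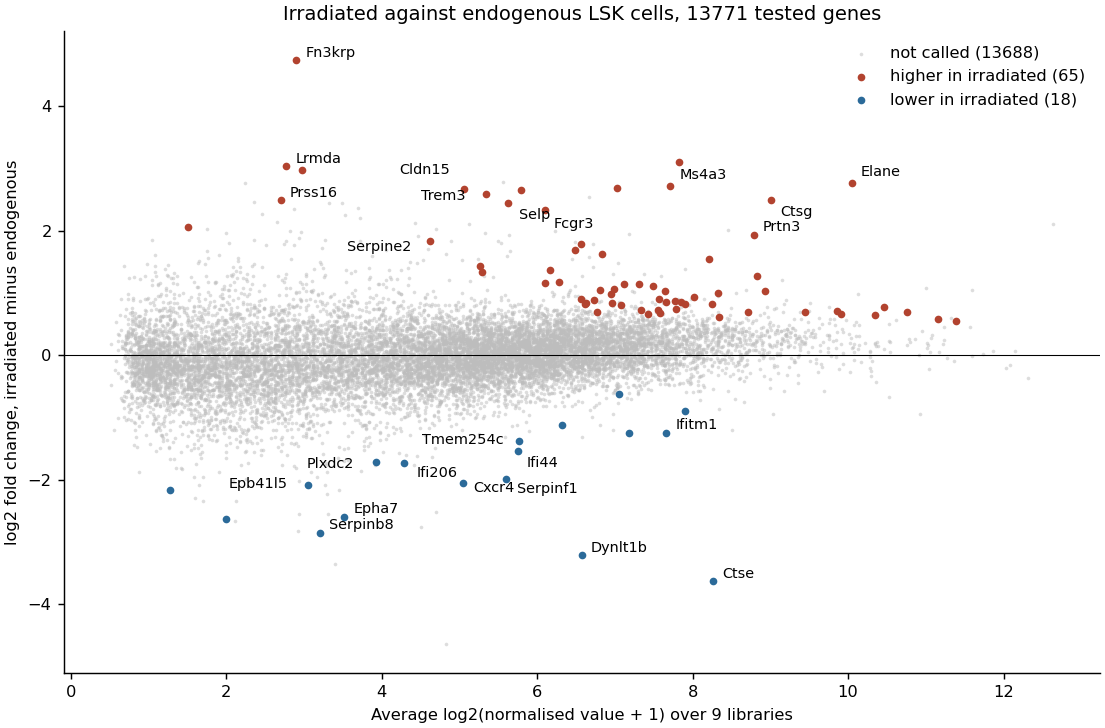
Log2 fold change (irradiated minus endogenous) of each tested gene against its average log2(normalised value + 1) over 9 libraries. Red points are the 65 genes called higher and blue points the 18 called lower in irradiated cells. Ctse and Dynlt1b lie lowest among the called genes and Fn3krp highest.

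Ctse, Dynlt1b and Cxcr4 were the falls with the smallest adjusted p. Ctse encodes cathepsin E, an intracellular aspartic protease, and lies on chromosome 1 from 131638306 to 131675505 (GRCm38). It stood at 45.4, 63.4 and 75.7 in the irradiated and at 711, 831 and 735 in the endogenous libraries, so the highest irradiated library was far below the lowest endogenous one. The log2 fold change was -3.63 (SE 0.185, adjusted p = 4.3e-06). The circulating libraries stood at 648, 508 and 713, near the endogenous level. Dynlt1b, a copy of the Tctex-type dynein light chain gene on chromosome 17 from 6430112 to 6436296, stood at 22.3, 19.9 and 19.9 in irradiated and 179, 227 and 194 in endogenous libraries (log2 fold change -3.21, SE 0.168, adjusted p = 4.3e-06). Its circulating values, 239, 190.1 and 164, spread to both sides of the endogenous ones and were all far above the irradiated ones. Cxcr4, the receptor that retains stem cells in the marrow, on chromosome 1 from 128588199 to 128592293, stood at 9.86, 14.5 and 8.54 against 47.03, 44.2 and 50.8 (log2 fold change -2.04, SE 0.221, adjusted p = 0.00434). All 3 circulating libraries, at 65.8, 57.8 and 64.8, were above every endogenous library. These 3 genes also passed between circulating and irradiated cells, a comparison that shares the irradiated libraries and called 4 genes in all (0.029%). There the log2 differences, circulating minus irradiated, were 3.33 for Ctse, 3.18 for Dynlt1b and 2.44 for Cxcr4. The calls of all 3 were kept without any single library.

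The Dynlt1 copies on chromosome 17 did not move together, and their values depend on how reads were shared among them. Of the 50-base stretches in the annotated transcripts of Dynlt1b, 76.3% also occur in Dynlt1a and in Dynlt1c. Dynlt1c fell, from 108, 112 and 95.6 in endogenous to 57.3, 46.4 and 41.3 in irradiated libraries (log2 fold change -1.12, SE 0.192, adjusted p = 0.0256). Dynlt1f and Dynlt1a had log2 fold changes of 0.53 and 0.80 and did not pass, although Dynlt1f passed as higher in the fit of 6 libraries. Summed over the 4 copies and Dynlt3, the values were 385 to 450 in irradiated and 513 to 674 in endogenous libraries, a smaller gap than that of Dynlt1b alone.

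**Figure D2:**
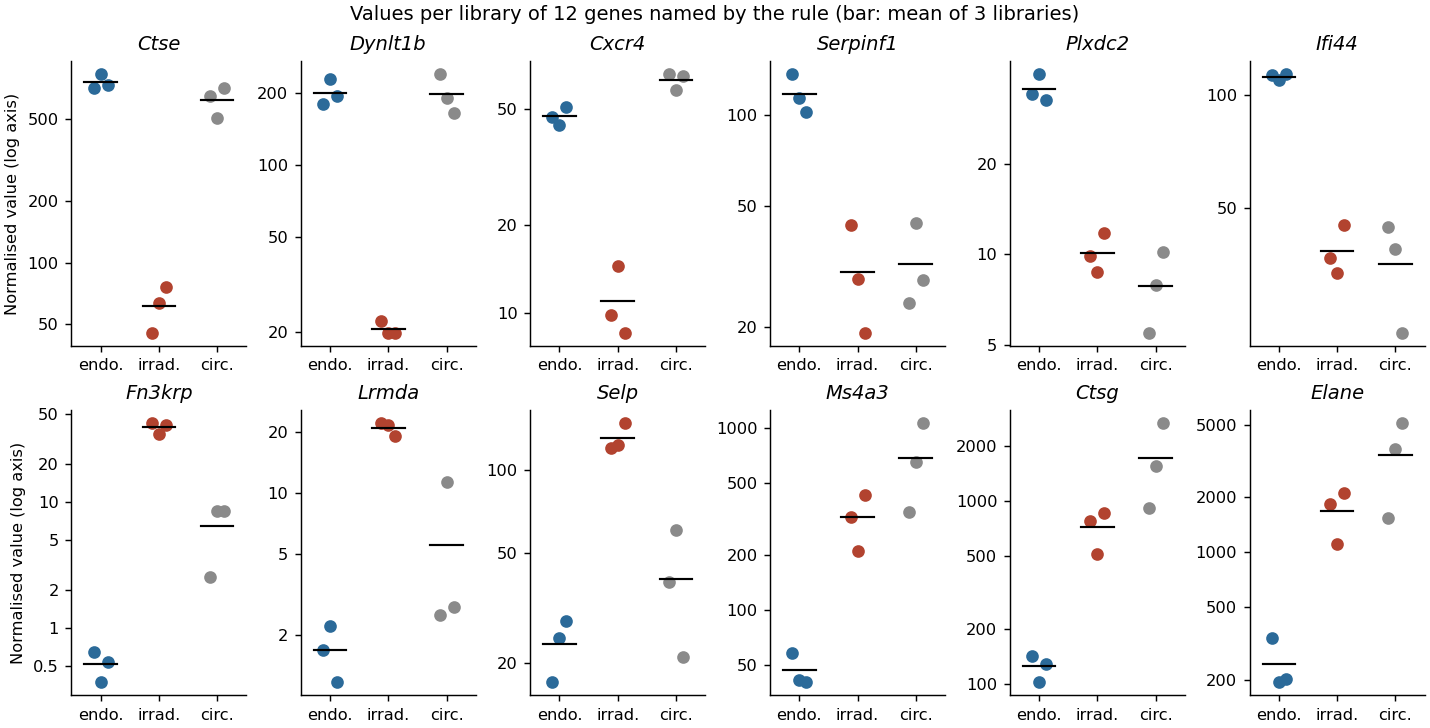
Normalised value (log axis) of 12 genes in each endogenous, irradiated and circulating library, with a bar at the mean of 3 libraries. Ctse, Dynlt1b and Cxcr4 are low in irradiated cells alone, Fn3krp, Lrmda and Selp are higher in every irradiated library than in any endogenous or circulating one, and Ms4a3, Ctsg and Elane are high in both irradiated and circulating cells. Serpinf1, Plxdc2 and Ifi44 are low in both.

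Further falls were less steep or at lower levels. Serpinb8, an intracellular serine protease inhibitor, stood at 4.07, 3.24 and 0.596 in irradiated and 34.3, 24.97 and 13.03 in endogenous libraries (log2 fold change -2.85, SE 0.483, adjusted p = 0.0245). Epha7, a receptor tyrosine kinase for ephrins, stood at 2.73, 4.32 and 2.98 against 21.3, 37.3 and 19.3 (log2 fold change -2.59). In both genes the lowest endogenous library was more than 3 times the highest irradiated one. Epb41l5, a FERM-domain protein of cell polarity, stood at 1.79, 2.79 and 4.78 against 16.4, 14.9 and 15.6 (log2 fold change -2.08). For these 3 genes the circulating libraries lay between the groups, at 11.2, 7.51 and 9.83 for Serpinb8, 8.94, 17.2 and 12.9 for Epha7 and 7.96, 5.70 and 9.88 for Epb41l5. Serpinf1, which encodes the secreted pigment epithelium-derived factor, fell from 137, 114 and 102 to 43.5, 28.7 and 19.1 (log2 fold change -1.98, SE 0.3, adjusted p = 0.0168). Plxdc2, a plexin-domain membrane protein, fell from 34.1, 39.7 and 32.7 to 9.91, 8.78 and 11.7 (log2 fold change -1.72). In these 2 genes the circulating values, 24.1, 44.2 and 28.6 and 5.49, 7.92 and 10.2, were also below every endogenous library. Kynu, an enzyme of tryptophan breakdown, Xkrx and Shisa5 also fell, with log2 fold changes of -2.63, -2.17 and -0.90. The calls of Serpinb8, Kynu and Xkrx ended with voom on recovered estimated counts. Tmem254c fell by 1.37 on the log2 scale, but every 50-base stretch of its transcripts also occurs in Tmem254a and Tmem254b, so the copy that changed is uncertain.

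Fn3krp showed the largest rise. It encodes fructosamine-3-kinase-related protein, which removes sugar adducts from glycated proteins, and lies on chromosome 11 from 121421401 to 121431288. It stood at 42.3, 35.01 and 40.9 in irradiated and only 0.642, 0.374 and 0.535 in endogenous libraries (log2 fold change 4.73, SE 0.408, adjusted p = 0.0006). The circulating libraries, at 2.53, 8.43 and 8.54, lay between the groups without overlapping either. Lrmda, a leucine-rich repeat gene linked to melanocyte differentiation, on chromosome 14 from 22019712 to 23056085, stood at 22.02, 21.5 and 18.9 against 1.69, 2.23 and 1.18 (log2 fold change 3.03, SE 0.468, adjusted p = 0.0176). Its circulating values were 2.51, 11.4 and 2.75, all below the irradiated ones. Selp, which encodes the adhesion receptor P-selectin, on chromosome 1 from 164115264 to 164150026, stood at 119, 123 and 147 against 17.04, 24.6 and 28.4 (log2 fold change 2.45, SE 0.328, adjusted p = 0.00998). The circulating libraries, at 39.4, 60.5 and 20.99, were again below every irradiated library. Between circulating and irradiated cells none of the 3 differences passed, with adjusted p of 0.0686 for Fn3krp, 0.181 for Lrmda and 0.0968 for Selp. The call of Fn3krp was kept without any single library. That of Lrmda ended without any 1 of the 6 libraries (adjusted p up to 0.107) and that of Selp without irradiated replicates 1 or 3 or endogenous replicates 1 or 2 (up to 0.0815). In the fits without circulating libraries both were kept whichever of the 6 was left out.

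Cep85, which encodes a centrosomal protein, rose with the same profile, at 217, 210.4 and 232 in irradiated, 59.1, 63.2 and 93.6 in endogenous and 80.7, 97.5 and 98.5 in circulating libraries (log2 fold change 1.62, SE 0.179, adjusted p = 0.00434). It shares sequence with 2 other called genes. The predicted locus Gm26880 stood at 159, 149 and 149.6 against 18.8, 21.1 and 31.98, and Miga1, which encodes the mitochondrial outer membrane protein mitoguardin 1, at 132, 112 and 122 against 62.4, 37.8 and 63.5. Of the 50-base stretches of Gm26880, 12.3% occur in Cep85 and 4.6% in Miga1. Of the stretches of Cep85 and Miga1, 2.9% and 0.5% occur in Gm26880. The predicted loci Gm42427, Gm43305 and Gm37416 rose as well, with log2 fold changes of 2.68, 3.10 and 2.97, and 76.6% of the stretches of Gm37416 occur in Gm42427. AI506816, which shares 3.1% of its stretches with Gm42427, rose by 1.03 on that scale. Whether shared reads link these values was not tested. The call of Miga1 ended with libraries rescaled to the same total and that of Gm37416 with voom on recovered estimated counts.

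Genes of granulocyte and monocyte progenitors were among the largest rises. Of 19 tested genes of that list, 6 rose, 0 fell and 13 did not pass, where 0.472% of all tested genes rose. The median log2 fold change was 1.27 against -0.01 over all genes. Ms4a3, a membrane protein that marks granulocyte-monocyte progenitors, stood at 326, 212 and 431 in irradiated and 58.5, 41.7 and 40.4 in endogenous libraries (log2 fold change 2.72, SE 0.36, adjusted p = 0.00998). Elane, which encodes neutrophil elastase, stood at 1836, 1106 and 2118 against 339.9, 195 and 204 (log2 fold change 2.77). The lowest irradiated library was more than 3 times the highest endogenous one in both genes. Ctsg, the gene of cathepsin G, a granule protease, stood at 778, 516 and 863 against 143, 103 and 129 (log2 fold change 2.49), and Prtn3, which encodes proteinase 3, at 622, 410 and 706 against 166, 122 and 159 (log2 fold change 1.93). Fcgr3, a low-affinity receptor for immunoglobulin G, stood at 92.03, 56.3 and 123 against 25.1, 14.8 and 11.4, and Nkg7, a granule membrane protein, at 527, 565 and 649 against 228, 275 and 220.1. Irradiated replicate 2 was the lowest of the irradiated libraries for each of these genes except Nkg7. Mpo, which encodes myeloperoxidase, followed the same order, at 8473, 5365 and 11941 against 2334, 1648 and 1734, but did not pass (log2 fold change 2.12, SE 0.412, adjusted p = 0.0689). The calls of Elane, Prtn3 and Fcgr3 ended with voom on recovered estimated counts. In the fit of 6 libraries 11 members passed as higher, Mpo among them, against 3.55% of all tested genes. The receptor genes Csf1r and Csf3r and the transcription factor gene Gfi1 had log2 fold changes of 0.09, -0.03 and 0.05.

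The list of mature neutrophil genes did not follow that of progenitors. None of its 15 genes passed, 14 had a negative log2 fold change, and the median was -0.52. Itgam, which encodes CD11b, had values of 29.9, 15.8 and 14.6 in irradiated and 44.4, 48.2 and 35.2 in endogenous libraries and was the 1 gene that passed, as lower, in the fit of 6. Its circulating values were 26.4, 32.5 and 43.3. The summed neutrophil values overlapped between the groups, at 1010 to 2328 in irradiated and 1428 to 2822 in endogenous libraries. The summed progenitor values did not, at 10180 to 19970 against 3741 to 4829. In circulating libraries the sums were 1423 to 2309 for neutrophil and 15620 to 45680 for progenitor genes, so high progenitor values were not particular to irradiated cells. Other called genes outside these lists were the myeloid receptors Trem3 (67.03, 42.9 and 71.95 against 12.5, 7.61 and 7.72) and Clec12a (378, 282 and 398 against 123, 92.6 and 146). Cldn15, a tight-junction claudin, stood at 36.3, 33.7 and 62.5 against 7.84, 5.84 and 4.22 (log2 fold change 2.67, SE 0.408, adjusted p = 0.0168). Prss16, a serine protease known from the thymus, stood at 12.1, 7.72 and 10.02 against 2.43, 0.110 and 0.857, and Serpine2, the secreted inhibitor protease nexin-1, at 31.5, 30.97 and 33.8 against 8.69, 6.32 and 10.1. Their log2 fold changes were 2.49 and 1.84. Further rises were Lgals1, which encodes galectin-1 (1.69), Anxa3, an annexin of myeloid cells (1.79), and F630028O10Rik, whose transcript contains the annotated Mir223 hairpin (1.43). With voom on recovered estimated counts the calls of Trem3, Clec12a, Cldn15, Prss16 and Anxa3 ended.

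Genes of G2/M and mitosis had higher values in irradiated cells across the whole list. Of 28 tested members, 7 rose, 0 fell and 21 did not pass, where 0.472% of all tested genes rose. All 28 had a positive log2 fold change, between 0.43 and 1.31 with a median of 0.79. Every irradiated library was above every endogenous one in 26, as in 15.2% of all tested genes. Birc5, which encodes survivin of the chromosomal passenger complex, stood at 177, 166 and 187 in irradiated and 79.1, 71.6 and 87.2 in endogenous libraries (log2 fold change 1.15, SE 0.143, adjusted p = 0.00894). Cdca8, which encodes borealin of the same complex, stood at 239.8, 200.2 and 235 against 94.3, 107 and 109 (log2 fold change 1.11). Ccnb2, a mitotic cyclin, stood at 272, 229 and 273 against 146, 137 and 137 (log2 fold change 0.88), and Cdca3, which promotes mitotic entry, at 147, 137 and 137 against 70.7, 61.2 and 69.9 (log2 fold change 1.05). In these 4 genes every irradiated library was above every endogenous one. Cdc20, an activator of the anaphase-promoting complex, Cenpa, the centromeric histone, and Cdk1, the mitotic kinase, also rose, by log2 fold changes of 1.03, 1.14 and 0.85, and the call of Cdk1 ended with libraries rescaled to the same total. Mki67, the proliferation marker, had values of 366, 344 and 353 against 208, 242 and 229.8 and did not pass (log2 fold change 0.65, SE 0.142, adjusted p = 0.068). In the fit of 6 libraries 22 of the 28 passed, all as higher, against 3.55% of all tested genes. The summed values of the list were 5585 to 6777 in irradiated, 3611 to 3754 in endogenous and 5498 to 8427 in circulating libraries.

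**Figure D3:**
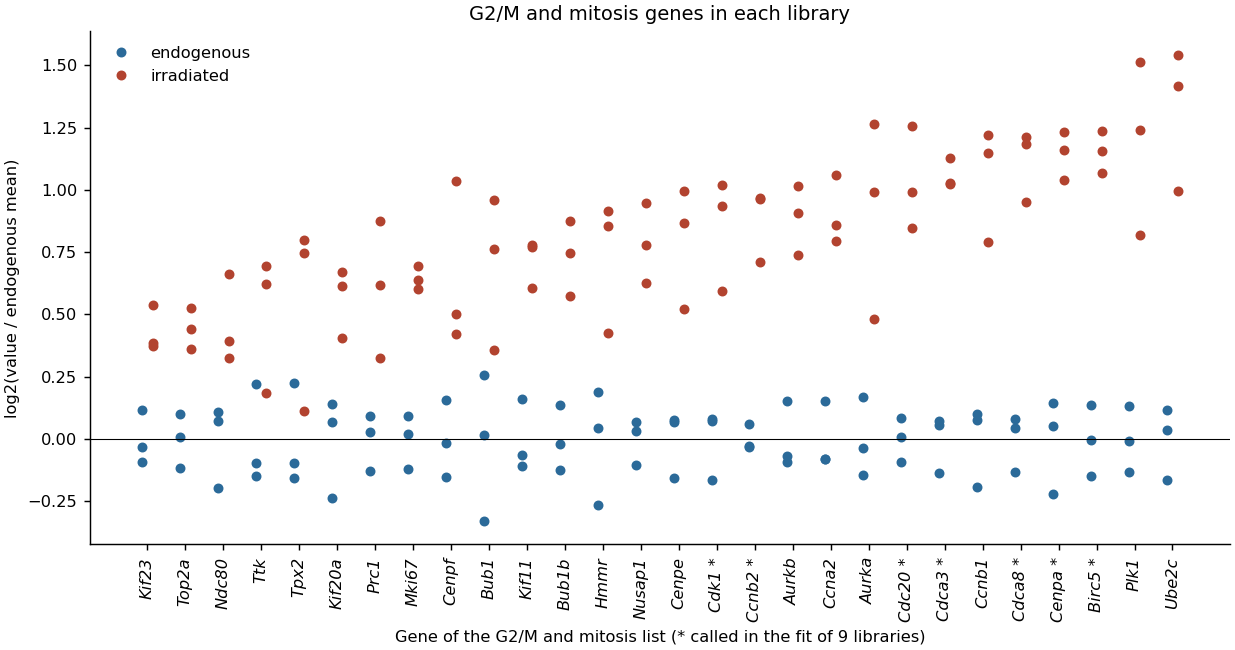
Log2 ratio of each library's value to the endogenous mean for the 28 genes of G2/M and mitosis, ordered by their fold change, with an asterisk on the 7 that were called. Irradiated libraries (red) lie above all endogenous libraries (blue) in 26 genes, and the groups overlap in Ttk and Tpx2.

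Promoter sequence is shown for 3 of the 4 called mitosis genes with the smallest adjusted p, because these genes moved together and share a short element. Mitotic genes are known to carry CCAAT boxes, which the factor NF-Y binds. In the 250 bases before the RefSeq start of each gene, CCAAT was searched on either strand (ATTGG on the printed strand marks a match on the other). It was found in 21 of the 24 mitosis genes with an entry in the RefSeq promoter table of GRCm38.p6 (87.5%), against 37.5% of all 27025 genes of that table and 40.6% of the 9915 tested genes that matched it. Birc5, Ndc80 and Nusap1 had no match. The element TTTGAA was searched on both strands and can share a letter with CCAAT. It was found in 8 of the 24 (33.3%), in 18.3% of the table and in 13.2% of the tested genes that matched it. Matches are letters only and show neither a binding site nor a cause of the change. The promoters of Ccnb2 (chr9:70421555-70421804, minus strand), Cdca8 (chr4:124936918-124937167, minus strand) and Cdca3 (chr6:124829926-124830175, plus strand) hold 3, 3 and 2 matches, in capitals below, each printed 5′ to 3′ and ending at the base before the start that the RefSeq table uses. For Cdca8 and Cdca3 the GENCODE gene spans begin further upstream, so these stretches lie inside the annotated genes there.
Ccnb2: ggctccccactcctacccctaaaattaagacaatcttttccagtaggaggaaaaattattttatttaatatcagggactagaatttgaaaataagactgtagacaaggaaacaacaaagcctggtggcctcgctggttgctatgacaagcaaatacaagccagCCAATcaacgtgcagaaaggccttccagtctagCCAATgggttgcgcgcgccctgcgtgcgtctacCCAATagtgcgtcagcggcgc
Cdca8: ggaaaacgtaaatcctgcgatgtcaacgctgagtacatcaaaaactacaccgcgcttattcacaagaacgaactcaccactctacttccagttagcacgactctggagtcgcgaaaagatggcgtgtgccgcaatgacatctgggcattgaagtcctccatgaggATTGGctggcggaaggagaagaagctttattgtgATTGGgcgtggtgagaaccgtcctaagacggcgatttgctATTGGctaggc
Cdca3: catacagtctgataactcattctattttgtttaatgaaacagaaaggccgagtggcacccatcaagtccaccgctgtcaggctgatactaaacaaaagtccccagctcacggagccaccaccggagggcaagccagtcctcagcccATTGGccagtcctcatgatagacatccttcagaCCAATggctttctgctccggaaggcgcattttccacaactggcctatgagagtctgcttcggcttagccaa
Birc5, without a match, had a log2 fold change of 1.15, against 0.88, 1.11 and 1.05 for the 3 genes printed.

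Genes of G1/S and DNA replication showed smaller differences. Of 29 tested, 2 rose and 27 did not pass, where 0.472% of all tested genes rose. A positive log2 fold change was found in 28, and the median was 0.38. Both genes that rose encode subunits of ribonucleotide reductase, which makes deoxyribonucleotides. Rrm2 stood at 399.7, 324 and 402 in irradiated and 185, 188 and 187 in endogenous libraries (log2 fold change 1.00, SE 0.161, adjusted p = 0.0215), and Rrm1 at 825, 725 and 849 against 494, 552 and 437 (log2 fold change 0.70). The fit of 6 libraries passed 9 members, all as higher, against 3.55% of all tested genes. These members included Mcm2, a subunit of the replicative helicase, and Tyms, thymidylate synthase. Outside both lists, further called genes with known parts in division were Cks1b and Cks2, subunits of cyclin-dependent kinases, Mad2l1 of the spindle checkpoint, Spc24 and Nuf2 of the NDC80 complex, Tacc3 of the spindle and Cdca5, which encodes sororin. Their log2 fold changes ran from 0.83 for Cks1b to 0.98 for Nuf2. Pclaf, a PCNA-associated factor (0.74), and the chromatin proteins Hmgb2 (0.65) and H2afz (0.77) rose as well. These genes were picked after their values were seen, and the calls of Cdca5, Spc24 and Pclaf ended with libraries rescaled to the same total. Of 18 genes that restrain the cell cycle none passed, and the median was -0.08. Cdkn1a, which encodes the inhibitor p21, had values of 11.3, 14.04 and 13.3 against 4.53, 12.2 and 12.8, which overlapped.

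Nuclear genes of the respiratory chain showed small differences, nearly all in the same direction. Of 44 tested, 2 rose and 42 did not pass, where 0.472% of all tested genes rose. A positive log2 fold change was found in 43, with a median of 0.41. Every irradiated library was above every endogenous one in 41, against 15.2% of all tested genes. Uqcrq, a subunit of complex III, stood at 111, 117 and 121 in irradiated and 64.3, 69.6 and 63.5 in endogenous libraries (log2 fold change 0.82, SE 0.139, adjusted p = 0.0245). Cox5a, a subunit of complex IV, stood at 219.9, 214 and 226 against 121, 129 and 162 (log2 fold change 0.68). In the fit of 6 libraries 18 members passed, all as higher, against 3.55% of all tested genes. The 13 genes encoded by the mitochondrial genome did not share this direction: 12 had a negative log2 fold change, the median was -0.16 and none passed in either fit. mt-Co1, a complex IV subunit encoded there, had values of 4703, 4972 and 4039 against 5211, 6818 and 5721. Of 23 glycolysis genes, Ldha, lactate dehydrogenase A, and Gapdh rose and 21 did not pass, with a median of 0.27. Ldha stood at 2079.8, 1947 and 2171 against 1231, 1255 and 1329.7 and Gapdh at 2689, 2579 and 2529 against 1724, 1849.9 and 1637, with log2 fold changes of 0.70 and 0.58. Of Gapdh's 50-base stretches, 24.7% also occur in other annotated transcripts. With the libraries rescaled to the same total, the medians became 0.28 for the nuclear respiratory chain, -0.30 for mitochondrially encoded genes and 0.14 for glycolysis, and the call of Cox5a ended.

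Called genes outside these metabolic lists were Uqcr11, Atp5g3 and Atp5mpl, further parts of the respiratory chain and ATP synthase, with log2 fold changes of 0.66, 0.62 and 0.85. Timm50, which imports proteins into mitochondria, Chchd2 and the pyrophosphatase Ppa1 rose by 0.81, 0.70 and 0.72 on the same scale. The calls of all 6 genes ended with libraries rescaled to the same total. Dbi, which carries acyl-CoA, stood at 169.6, 166 and 160 in irradiated and 79.6, 80.5 and 76.3 in endogenous libraries, with little spread within either group. No gene of the antioxidant and metallothionein list or of the unfolded protein response list passed. Their medians were 0.40 over 22 genes and 0.48 over 19. The fit of 6 passed 7 and 6 members, all as higher, against 3.55% of all tested genes. Mt1, a metal-binding metallothionein, had values of 51.1, 31.1 and 65.5 against 13.6, 7.74 and 9.85, and Sdf2l1, a chaperone cofactor of the endoplasmic reticulum, 147, 90.2 and 166 against 46.5, 35.04 and 48.6.

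Genes of the type I interferon response mostly had lower values in irradiated cells, and few passed singly. Of 33 tested, 2 fell, 0 rose and 31 did not pass, where 0.131% of all tested genes fell. A negative log2 fold change was found in 27, and the median was -0.47. In 17 every irradiated library was below every endogenous one, against 12.5% of all tested genes. Ifi44, an interferon-induced GTP-binding protein, stood at 36.8, 33.4 and 44.96 in irradiated and 113, 109.6 and 114 in endogenous libraries (log2 fold change -1.53, SE 0.233, adjusted p = 0.0168). Irf9, the DNA-binding part of the complex that interferon activates, stood at 116, 111 and 119 against 188, 171 and 173 (log2 fold change -0.62, SE 0.117, adjusted p = 0.0425). Both genes had a narrow range within each group. In the fit of 6 libraries 9 members passed, all as lower, against 1.95% of all tested genes. Ifit1 and Oasl2 were among these members. Members without a difference in that direction included Ifih1 (0.47) and Bst2 (0.29). Outside the list, Ifi206, of the interferon-inducible PYHIN family, fell from 35.5, 33.3 and 34.1 to 9.01, 9.13 and 11.02 (log2 fold change -1.72), although 25.6% of its 50-base stretches occur in other annotated transcripts, mainly of its own family. Ifitm1, an interferon-induced membrane protein that is also expressed in stem cells, fell from 348, 440.4 and 497 to 219, 209.6 and 123 (log2 fold change -1.25). The circulating values of Ifi44 (44.3, 38.9 and 23.1) and Ifitm1 (130.2, 111 and 84.4) were below every endogenous library.

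Of 28 tested genes associated with haematopoietic stem cells, 0 rose, 1 fell and 27 did not pass, where 0.131% of all tested genes fell. A negative log2 fold change was found in 22, and the median was -0.37. Against 1.95% of all tested genes, the fit of 6 libraries passed 7 members, all as lower. Among them Hlf, a stem cell transcription factor, had values of 97.9, 127 and 105 in irradiated and 209, 186 and 190 in endogenous libraries, Procr, the endothelial protein C receptor, 40.3, 36.9 and 30.2 against 73.8, 73.7 and 50.1, and Ndn, the growth suppressor necdin, 4.78, 6.08 and 7.07 against 26.8, 25.8 and 18.1. The groups did not overlap in any of these 3, which were taken from the members that passed. Of the whole list 12 of 28 were lower without overlap, against 12.5% of all tested genes. For Hlf, Procr and Ndn the circulating libraries were lower still, at 77.6, 50.9 and 41.01 for Hlf. Mecom and Tal1, transcription factors of the same list, had log2 fold changes of -0.16 and -0.16, and Hoxb5 0.06.

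Among the 11 sorting and subset markers, Fcgr3 alone passed. Kit had a log2 fold change of -0.57 (SE 0.134, adjusted p = 0.0884) and Ly6a one of -0.05. Flt3, a receptor of multipotent progenitors, had values of 416, 469 and 325 in irradiated and 642, 807 and 870 in endogenous libraries, and Cd34 of 1251, 1324 and 1147 against 1569.8, 1588 and 1512. Kit, Flt3 and Cd34 were lower in all 3 irradiated libraries and passed as lower in the fit of 6, with limma adjusted p of 0.024, 0.00865 and 0.0428. Ptprc, which encodes CD45, had values of 510.1, 499 and 449.7 against 605, 607 and 557 and did not pass (log2 fold change -0.28, adjusted p = 0.4).

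**Figure D4:**
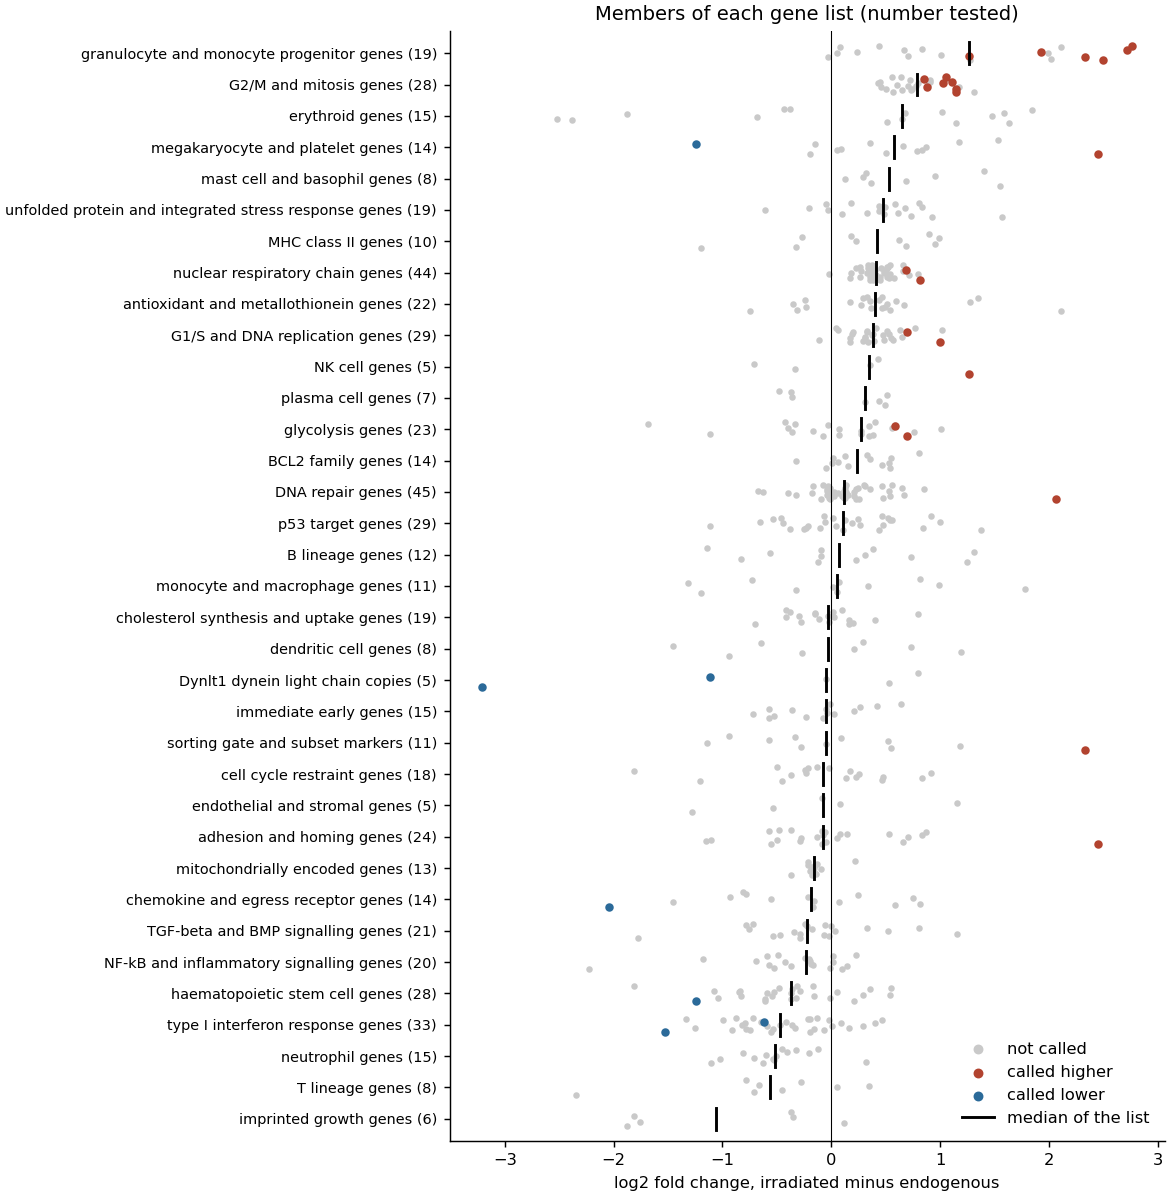
Log2 fold change (irradiated minus endogenous) of every tested member of 35 gene lists, with the number tested in parentheses, ordered by the median (black bar). Granulocyte and monocyte progenitor genes and mitosis genes stand at the top with medians of 1.27 and 0.79, and p53 target genes lie near 0 at 0.11 (-0.03 when libraries are rescaled to the same total).

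The lists of p53 targets, DNA repair and the BCL2 family, which radiation is known to engage, held 1 call between them, where 0.603% of all tested genes were called. Of 29 p53 target genes none passed, 17 had a positive and 12 a negative log2 fold change, and the median was 0.11 (-0.03 with libraries rescaled to the same total). Mdm2, which encodes the ubiquitin ligase of p53, had values of 83.1, 89.3 and 93.5 in irradiated and 77.5, 75.7 and 79.1 in endogenous libraries. Bax, a pro-apoptotic BCL2 protein, had 65.5, 65.1 and 61.4 against 44.2, 40.4 and 46.9. Trp53 itself had 274, 270.2 and 253 against 277, 277 and 270.2 (log2 fold change -0.05). The fit of 6 passed Gtse1 as higher and Rrm2b as lower among p53 targets. Gtse1 is also a gene of G2, and its values were 28.1, 16.9 and 26.9 against 6.09, 7.73 and 12.5. Of 45 DNA repair genes, Lig4 rose and 44 did not pass, with a median of 0.12 (-0.01 when rescaled). Lig4, the ligase of non-homologous end joining on chromosome 8 from 9969049 to 9977686, stood at 6.45, 6.04 and 6.29 in irradiated, 0.564, 0.639 and 1.02 in endogenous and 1.33, 0.0376 and 1.39 in circulating libraries (log2 fold change 2.07, SE 0.38, adjusted p = 0.0376). Its level was low in all groups, and the 3 irradiated libraries lay within a narrow range above the other 6. Its call ended with a pseudocount of 0.5, with the filter of 5 in 3 libraries and with voom on recovered estimated counts. Of 14 genes of the BCL2 family none passed, 12 had a positive log2 fold change and the median was 0.24. Bcl2, which protects from apoptosis, had values of 211, 224 and 213 against 138, 125 and 191, which did not overlap.

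Among 14 chemokine and egress receptor genes, Cxcr4 fell and 13 did not pass, with a median of -0.19. Ccr7, a homing receptor of lymphocytes, had values of 7.03, 8.72 and 7.50 in irradiated and 17.4, 11.6 and 19.01 in endogenous libraries, and Ccr9 of 8.58, 8.77 and 9.52 against 26.2, 36.2 and 18.9. Both were lower in all 3 irradiated libraries, but only Ccr9 passed in the fit of 6. Of 24 adhesion and homing genes, Selp rose and 23 did not pass. None of 20 genes of NF-kB and inflammatory signalling passed (median -0.23). Ccl3, an inflammatory chemokine, had values of 2.90, 5.71 and 6.74 against 33.1, 24.6 and 22.5 and passed as lower in the fit of 6. None of 21 TGF-beta and BMP genes, 15 immediate early genes or 19 cholesterol genes passed, with medians of -0.22, -0.05 and -0.03. The imprinted list had the lowest median, -1.06 over 6 genes, none of which passed. The fit of 6 libraries passed 3 of the 6 as lower, against 1.95% of all tested genes. Without overlap 5 were lower, against 12.5% of all tested genes. Meg3, an imprinted long non-coding RNA of stem cells, had values of 0.172, 0.0869 and 0.0705 against 4.62, 3.65 and 1.57.

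Markers of other cell types were measured in the same way. No gene of the erythroid, mast cell, B lineage, T lineage, dendritic, plasma cell, monocyte, endothelial or MHC class II lists passed. Values were summed over the listed genes with deposited values, tested or not. In irradiated and endogenous libraries the sums were 1277 to 2057 and 1569 to 2351 for 15 erythroid genes. They were 488 to 1146 and 967 to 1620 for 13 B lineage genes, and 945 to 980 and 787 to 1151 for 13 monocyte genes. These ranges overlapped. Sums that did not overlap were those of 10 T lineage genes (104 to 147 against 169 to 193) and 8 mast cell genes (236 to 375 against 175 to 211). The same held for 10 dendritic (567 to 785 against 930 to 1241) and 5 NK genes (543 to 661 against 233 to 285). It also held for the 5 of 12 endothelial and stromal genes with values (176 to 204 against 229 to 243). Among all tested genes, taken singly, 27.7% did not overlap. Pecam1, in the endothelial sum, stood at 98.03 to 109 against 103 to 121, which overlapped. Single genes made up most of some sums: Lck (51.05 to 82.8 against 105 to 109) for T lineage, Flt3 (325 to 469 against 642 to 870) for dendritic and Nkg7 (527 to 649 against 220 to 275) for NK. Flt3 and Nkg7 are also named above among progenitor genes. Of the tested dendritic genes 4 had a positive and 4 a negative log2 fold change, with a median of -0.03. Cd3e, Rag1, Pax5, Siglech and Cdh5 were at 1 or more in fewer than 3 libraries or were not listed. In the NK list Nkg7 rose and 4 of 5 did not pass, and Ncr1, Gzma and Prf1 had no deposited values. In the megakaryocyte list Selp rose, 1 gene fell and 12 of 14 did not pass, and its sums were 1282 to 1371 against 1063 to 1376. Gata1, an erythroid and megakaryocyte factor, had values of 24.01, 36.001 and 63.7 in irradiated and 15.7, 10.3 and 9.59 in endogenous libraries, and Hba-a2, an alpha globin, of 3.70, 8.67 and 17.7 against 19.9, 80.7 and 92.1. Hba-a2 values were thus lower and Gata1 values higher in irradiated cells, and neither gene passed in the fit of 9. In the fit of 6 Gata1 passed as higher and Hba-a2 as lower, among 2 higher and 2 lower erythroid genes. Of the 15 erythroid genes 9 had a positive and 6 a negative log2 fold change, with a median of 0.65. The part of other cell types in the progenitor and mitosis differences was not tested.

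The strain label differed between the groups, and the CD45.1 allele that names the endogenous strain lies in Ptprc on chromosome 1. On that chromosome 11 of 934 tested genes were called (1.18%), against 0.603% of all tested genes. Within 40 Mb of Ptprc 9 of 383 were called (2.35%), and beyond 40 Mb 2 of 551 (0.363%). Within 20 Mb it was 4 of 208 (1.92%), and within 10 Mb 2 of 115 (1.74%). In the fit of 6 libraries the shares were 8.36% within and 4.17% beyond 40 Mb, against 5.5% of all genes. The windows were chosen after the values were seen and carry no test. Ctse and Cxcr4 start 6.42 Mb and 9.47 Mb before Ptprc, Dbi and Epb41l5 17.95 Mb and 18.52 Mb before it, and Serpinb8 30.47 Mb before it. Selp, Nuf2, Fcgr3 and Ifi206 start 26.05, 31.44, 32.99 and 35.41 Mb after it. Both directions occurred there: 4 of these 9 genes were higher and 5 lower in irradiated cells. The circulating libraries carry the C57BL/6 label, as the irradiated ones do, but the title code LSK1, as the endogenous ones do. They lay near the endogenous libraries for Ctse and Cxcr4 and near the irradiated ones for Nuf2 and Dbi. For Serpinb8, Epb41l5, Ifi206 and Selp the circulating mean lay between the other groups. For Fcgr3 it was 238, against 90.3 in irradiated and 17.1 in endogenous libraries. Whether the strain label gives the genotype of the sorted cells was not tested. The part of the strain label in these differences cannot be told apart from that of the group.

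**Figure D5:**
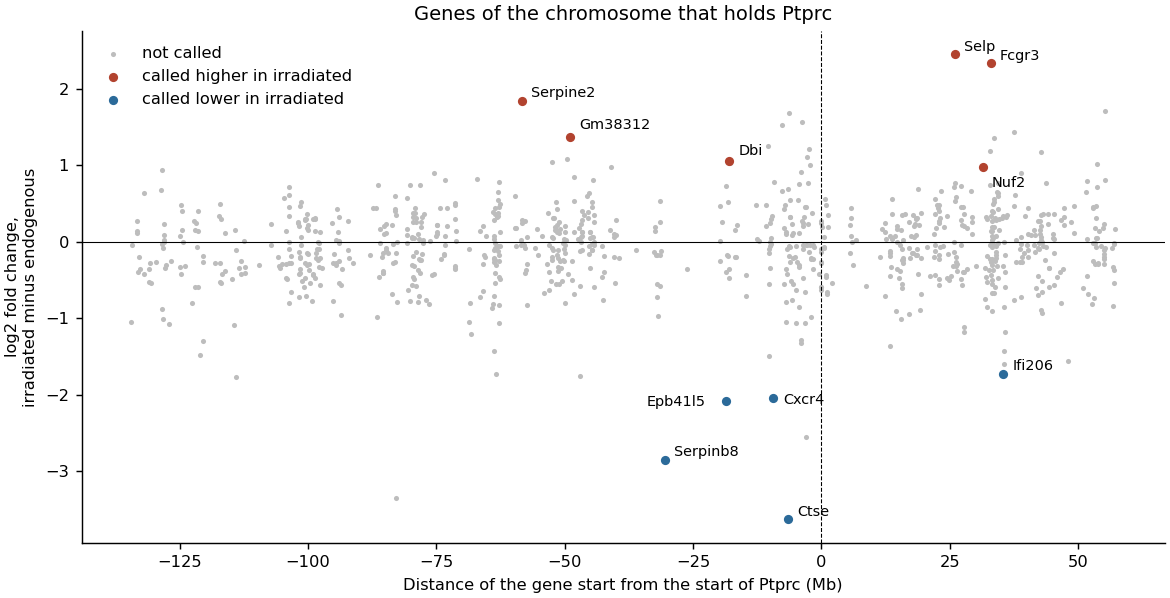
Log2 fold change (irradiated minus endogenous) of the 934 tested genes of chromosome 1 against the distance of the gene start from the start of Ptprc, in megabases, with Ptprc at the dashed line. Of the 11 called genes, 9 lie within 40 Mb of Ptprc, among them Ctse and Cxcr4 on its left and Selp and Ifi206 on its right.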

How the data were processed

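RNA of LSK cells was sequenced after SMART-Seq v4 amplification and Nextera XT library preparation, per the labels' protocols, a chemistry that does not mark strand. Tools named without a role or order in the submitters' processing notes are RSEM 1.3.1, CASAVA and limma, and the build is mm10. The deposited table holds a normalised signal for 14461 genes: each value is an estimated count with 2 decimals plus an offset of 0.5, divided by a scaled library size, which the values themselves show. The estimated counts recovered from the authors' signal totalled 14065855 to 27012345 per library over the 9 libraries. Without molecular identifiers, PCR copies cannot be told from separate molecules.

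Groups came from the source names, and irradiated libraries were compared with endogenous ones. Genes with a value of at least 1 in at least 3 of 9 libraries were kept (13771, with 690 left out). limma 3.58.1 (R 4.3.3, trended prior, robust moderation) was fitted to log2(value + 1) of all 9 libraries, with Benjamini-Hochberg adjustment over all tested genes and a threshold of 0.05. Fold changes on this scale understate the change of low genes. The fit was checked on simulated data. Named genes were, first, the 12 genes that rose most and the 12 that fell most. These had to be called, to average 2 or more on the log2 scale and to have groups without overlap, and predicted loci and immunoglobulin segments were left out. Added to them were up to 4 members of each of 35 lists and fixed markers. The members and lists were chosen with earlier results of these data known. Further called genes were named after their values were seen, and some genes that the rule selects are not reported here. Alternatives changed the libraries fitted, sample weights, pseudocount, filter, scaling, moderation, a voom fit on the recovered estimated counts and the replicate block. Shared sequence was counted as 50-base stretches over GENCODE M21 transcripts (GRCm38), and promoters came from RefSeq.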

Additional observations from a re-analysis of the deposited data

How the results depend on the processing

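The number of called genes changed most with the libraries fitted, their weights and the filter. It was 757 (489 higher, 268 lower) with the 6 libraries of these 2 groups alone, 897 (615 and 282) with sample weights, and 138 (110 and 28) when a gene had to reach 5 in 3 libraries. Leaving out 1 library in turn gave 6 to 263 calls (3 to 198 higher, 3 to 65 lower). Leaving out 1 of the 6 with the circulating libraries also set aside, an alternative chosen after seeing the data, gave 152 to 696 (105 to 449 higher, 45 to 247 lower). The lowest counts came without irradiated replicate 3 and without endogenous replicate 1. The remaining alternatives without a replicate block gave 75 to 96 calls. Rescaling to the same total put the median gene at -0.13 on the log2 scale and the split at 49 higher and 26 lower. The cause of these changes was not tested. No called gene changed direction under any alternative. Of the 83, 50 were lost in none of the 12 alternatives that kept all libraries of both groups, and 70 were kept by voom on recovered estimated counts. Of 945 list medians recomputed, 38 changed sign, all from lists with a median between -0.08 and 0.31.

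Irradiated and endogenous libraries of the same replicate number had deviations that correlated at 0.079, 0.05 and -0.023. The titles of circulating and irradiated libraries share DD codes numbered 1 to 3. Between these groups, libraries of the same number correlated at 0.05, 0.031 and 0.182, and those of different number at -0.167 to 0.106. The labels do not say whether the numbers mark pairs, and the main fit treated all 9 libraries as independent. With the replicate number as a block, 105 genes were called over 9 libraries (83 higher, 22 lower), where 73 of the 83 were kept and the 10 lost included Elane, Fcgr3, Irf9, Rrm1, Cox5a, Uqcr11, Ppa1, Pclaf and Prss16, and 496 over 6 libraries (324 higher, 172 lower). Low values limit precision most: the 690 genes that reached 1 in fewer than 3 of the 9 libraries were not tested.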

Other observations

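Several genes with large differences did not pass the fit of 9 libraries and were picked here after their values were seen. Rftn2, which encodes the raft-associated protein raftlin 2, had values of 3.25, 1.51 and 2.56 in irradiated and 21.8, 44.95 and 37.7 in endogenous libraries (log2 fold change -3.35, limma adjusted p = 0.0619, and 0.00125 in the fit of 6 libraries). Its circulating values spanned both groups, at 1.43, 16.4 and 23.6. Sema3d, a secreted semaphorin, had 0.921, 9.56 and 2.31 against 26.5, 27.9 and 28.8 (log2 fold change -2.82, adjusted p = 0.119, and 0.0156 in the fit of 6). Dmkn, which encodes dermokine, went the other way, with 14.4, 5.78 and 21.6 against 2.43, 1.39 and 0.754 (log2 fold change 2.45, adjusted p = 0.104, and 0.017 in the fit of 6).

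Immunoglobulin transcripts varied widely between libraries of the same group. Igha, the heavy chain constant gene of immunoglobulin A, had 0.741, 1.19 and 0.635 in irradiated libraries, 308, 215 and 0.406 in endogenous ones and 1187, 4872 and 2.41 in circulating ones. Igkc, the kappa constant gene, had 13728, 874 and 1636 in irradiated and 2866, 1057 and 693 in endogenous libraries. The part of plasma cell RNA in these values was not tested.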
